A study of Mus musculus with 20 samples.

Results

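The LIF, gp130 and STAT3 pathway was followed through 10 genes in the mouse uterus on the evening before embryo attachment. The members were chosen by symbol in the table of transcript levels: the ligands Lif, Il11 and Il6, the receptors Lifr, Osmr, Il6ra and Il11ra1, the shared receptor subunit gp130 (gene Il6st), the transcription factor Stat3 and the feedback inhibitor Socs3. All 10 were found among the 45777 genes listed, and 8 of them were above 0 TPM in all 20 libraries, as were 18706 genes in all. The libraries came from wild-type B6D2F1 females aged 8 to 12 weeks, 5 mice in each of 4 groups, with uteri taken at 18:00 on day 3.5 after mating and 1 library per mouse. Control mice received no treatment. The IF group, a model of implantation failure, received RU486 on the morning of day 3.5, and the PBMC and PBMC-hCG groups received it as well. RU486, or mifepristone, antagonises the progesterone and glucocorticoid receptors. Mice of the PBMC group had peripheral blood mononuclear cells from non-pregnant mice placed in the uterus on day 1.5. For the PBMC-hCG group these cells had been cultured with human chorionic gonadotropin (hCG). Control and IF mice had no intrauterine injection, so that the cells and the injection cannot be told apart in comparisons with them. Each RNA sample came from a whole uterine horn, with muscle, stroma, epithelium and glands together, in which fewer cells of a type and less RNA per cell cannot be told apart.

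Leukemia inhibitory factor (LIF) is a cytokine that the uterine glands of the mouse secrete before implantation, and embryos do not implant in females that lack it. LIF binds the LIF receptor, which pairs with gp130, and the kinases bound to gp130 phosphorylate STAT3, which moves to the nucleus and activates its target genes. One of these targets is Socs3, whose product binds gp130 and the kinases and shuts the signal off. IL-6, IL-11 and oncostatin M use the same gp130 with receptors of their own, and IL-11 signaling is needed for decidualization, the change of the stroma that supports the embryo.

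The genes lie on 7 mouse chromosomes (build GRCm38, which is mm10). On chromosome 11 are Lif (NCBI gene 16878, 4257568 to 4272514), Stat3 (20848, 100886806 to 100939594) and Socs3 (12702, 117966079 to 117970336). Osmr (18414, 6813568 to 6874968) and Lifr (16880, 7090610 to 7197489) are neighbours on chromosome 15. The others are Il6st (16195) on chromosome 13 at 112464070 to 112506860, Il6ra (16194) on chromosome 3 at 89869324 to 89913196, Il11ra1 (16157) on chromosome 4 at 41760443 to 41769473, Il11 (16156) on chromosome 7 at 4772373 to 4782907, and Il6 (16193) on chromosome 5 at 30013114 to 30019975.

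The RefSeq promoters of the members were searched for the 9 letters TTCNNNGAA that STAT proteins bind and for the AP-1 motif TGANTCA, in the 250 bases before each of the 13 annotated starts. Both motifs read the same on either strand. The STAT motif was in 1 of the 13 windows, that of Socs3, and in 7.02% of 32851 mouse promoters. The AP-1 motif was in 3 of the 13, those of the ligands Lif, Il11 and Il6, and in 6.75% of all promoters. These 4 windows are shown because they belong to the feedback gene and the ligands whose levels are followed below, with the motif in capitals, each read 5′ to 3′ along the strand of the gene. A match describes the letters only, and binding was not measured.
Socs3 (GRCm38.p6, chr11:117969367-117969616, minus strand): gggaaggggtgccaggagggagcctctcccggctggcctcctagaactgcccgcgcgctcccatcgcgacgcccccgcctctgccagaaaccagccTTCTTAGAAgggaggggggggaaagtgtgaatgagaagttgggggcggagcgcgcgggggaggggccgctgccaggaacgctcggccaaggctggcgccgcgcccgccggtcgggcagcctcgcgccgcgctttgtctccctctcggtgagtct
Lif (GRCm38.p6, chr11:4257318-4257567, plus strand): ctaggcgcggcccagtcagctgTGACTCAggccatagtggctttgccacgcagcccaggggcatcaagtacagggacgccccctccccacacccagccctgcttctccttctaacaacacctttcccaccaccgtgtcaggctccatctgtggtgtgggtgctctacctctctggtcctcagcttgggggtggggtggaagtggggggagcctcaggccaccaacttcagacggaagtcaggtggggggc
Il11 (GRCm38.p6, chr7:4778142-4778391, minus strand): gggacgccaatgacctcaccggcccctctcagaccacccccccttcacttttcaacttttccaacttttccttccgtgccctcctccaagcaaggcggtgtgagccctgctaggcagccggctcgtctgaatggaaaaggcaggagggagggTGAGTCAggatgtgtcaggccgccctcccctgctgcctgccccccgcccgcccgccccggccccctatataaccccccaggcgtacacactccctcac
Il6 (GRCm38.p6, chr5:30012864-30013113, plus strand): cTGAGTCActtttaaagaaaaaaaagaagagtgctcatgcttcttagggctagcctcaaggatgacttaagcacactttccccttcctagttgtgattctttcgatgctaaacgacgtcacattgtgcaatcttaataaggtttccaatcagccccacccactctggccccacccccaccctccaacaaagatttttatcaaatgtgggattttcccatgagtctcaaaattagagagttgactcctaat
The STAT match of Socs3 began 154 bases before its start, and the AP-1 matches began 228 bases before the start of Lif, 98 before that of Il11 and 249 before that of Il6. The start used for Il11 is 1 of 2 in the table, and the other held neither motif.

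The values were TPM, transcript abundances that are corrected for gene length and scaled to a fixed total, so the number of reads behind a value is unknown. Log2 levels of a library correlated with those of its own group at a median r of 0.98 or above in 19 of 20 libraries. Control replicate 2 stood apart at 0.963. It also had the adipose markers at a summed 89.2 TPM against 0 to 12.4 TPM in the other libraries, and 24008 TPM of 6 uterine gland markers, against 1268 to 7819 TPM in the other control mice. Prss29, Spink1 and Prss28 made up most of that sum, and Ltf was also high, at 79.5 TPM. Cxcl15 went the other way, at 0.394 TPM against 2.35 to 19.9 TPM in the other control mice, and Foxa2 (9.03 TPM) was within their range. Control replicate 5, the next lowest control at a median r of 0.982, had a gland sum of 7819 TPM and Cxcl15 at 2.35 TPM. Several results against control mice are also given without these 2 libraries, in a fit chosen after the data were seen. They held the 2 lowest Lif values of the control group, so for Lif the p-values of this fit follow from that choice. Single libraries of other groups also stood high in the gland sum, with IF replicate 3 at 12263 TPM against 2649 to 6251 TPM in the other IF mice and PBMC-hCG replicate 4 at 10237 TPM against 3802 to 4141 TPM. Cxcl15 was the lowest of its group in both, at 2.33 and 5.08 TPM. Neither was removed in the fit without the 2 control libraries. Markers that define the uterus were present in all libraries, and of the embryo markers Zp3 was at 0 TPM throughout, Cdx2, Pou5f1 and Nanog reached at most 0.206 TPM, and Gata6, which other tissues also express, was at 6.93 to 11.7 TPM. The summed stromal markers were at 2443 to 2799 TPM in control mice and at 3309 to 4578 TPM in the other groups. The endothelial markers were at 316 to 425 TPM in control mice and 473 to 590 TPM in the others. Both sums thus moved with every comparison against the control group. Dcn made up most of the stromal sum, averaging 1750 TPM in control and 3146 TPM in IF mice, and Col6a4 rose as well. Hoxa10 and Hoxa11 went the other way, from 259 to 139 TPM and from 213 to 101 TPM on average. Hand2 and Pdgfra did not pass between IF and control mice. Leukocyte markers summed to 144 to 164 TPM in control mice and 170 to 211 TPM in the other groups. The part of these shifts in the results was not tested.

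The shared subunit and the transcription factor were among the higher transcripts of the uterus, and the ligands were low. Over the 20 mice, Il6st averaged 303 TPM, above the mean of 97.9% of the tested genes, and Stat3 averaged 174 TPM. Il11ra1 (65.1 TPM), Socs3 (52.9 TPM) and Osmr (29.5 TPM) came next, ahead of Lifr (17.4 TPM) and Il6ra (15.7 TPM). Lif averaged 5.59 TPM and Il11 5.13 TPM, while Il6 averaged 0.297 TPM and was listed at 0 in 6 libraries. The ligands and Socs3 varied most between mice, with the highest Lif value 35.7 times the lowest and the highest Socs3 value 9.15 times the lowest, against 1.90 times for Il11ra1 and 2.44 times for Il6st.

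**Figure D1:**
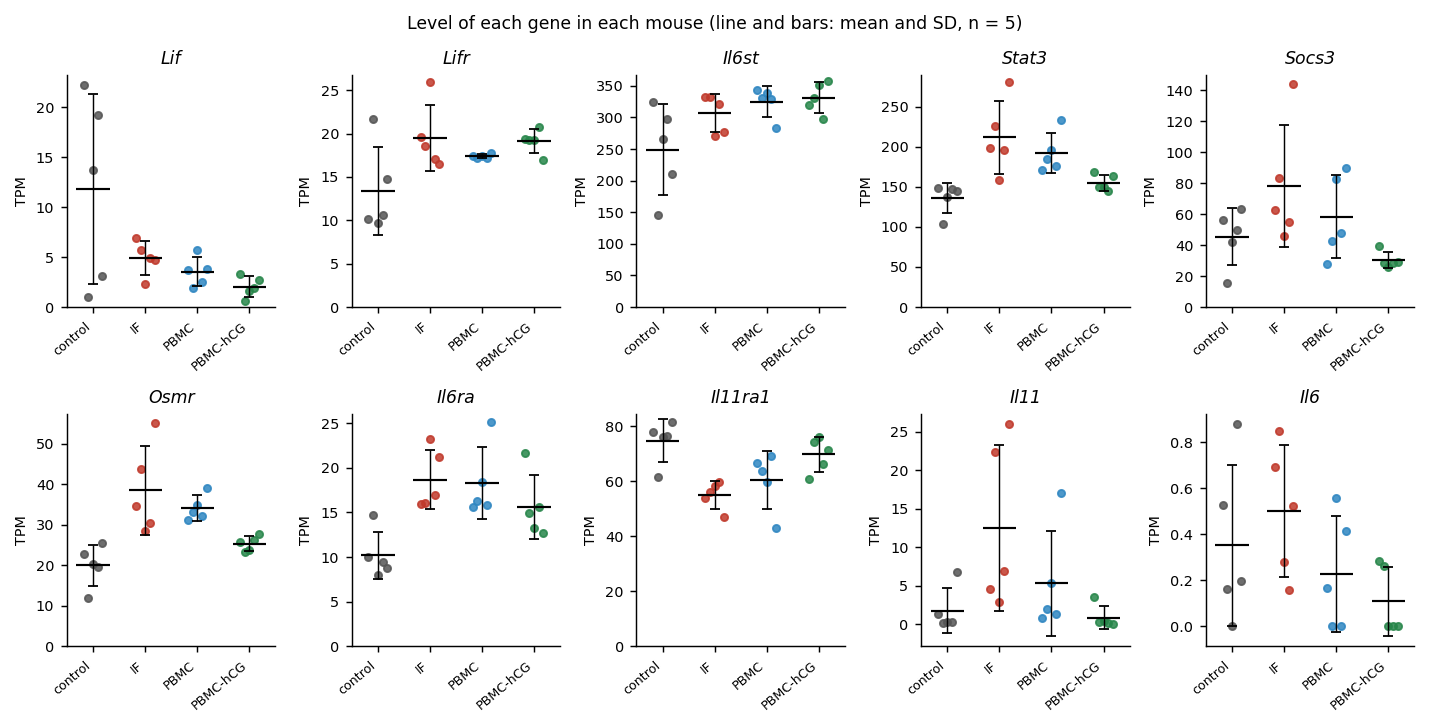
Level in TPM (vertical axes) of the 10 genes in control mice and in the IF, PBMC and PBMC-hCG mice, with 1 point per mouse and the mean and SD of 5 mice as line and bars. Lif spreads from 0.976 to 22.2 TPM within the control group, and Stat3, Osmr and Il6ra lie higher in all IF mice than in all control mice.

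In IF mice, Stat3, Osmr, Il6ra and Lifr rose by 1.51 to 1.92-fold against control mice, Il11ra1 fell, and Il11 was higher by the exact test. Lif, Il6st and Socs3 did not pass. In limma's test on log2(TPM + 0.1), with Benjamini-Hochberg adjustment over all 18706 genes, 5 of the 8 members tested had an adjusted p under 0.05, 4 higher and 1 lower, where 21.9% of all tested genes passed, with 13.4% higher and 8.53% lower. The median log2 fold change of the 8 was 0.61, against 0.02 for all genes.

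Stat3, the factor that carries the signal to the nucleus, was at 149, 104, 137, 147 and 144 TPM in control replicates 1 to 5 and at 198, 226, 159, 195 and 281 TPM in IF replicates 1 to 5. Every IF mouse lay above every control mouse. The log2 fold change was 0.62 ± 0.13 (SE, adjusted p = 0.00156), or 1.54-fold. Osmr, the oncostatin M receptor subunit, was at 22.7, 11.8, 20.3, 19.5 and 25.5 TPM in control and at 34.6, 43.7, 28.5, 30.4 and 55.2 TPM in IF mice. Its groups did not overlap either, and the log2 fold change was 0.94 ± 0.18 (SE, adjusted p = 0.000865). Il6ra, the subunit that binds IL-6, was at 9.95, 14.7, 8.03, 9.47 and 8.79 TPM in control and at 15.9, 16.1, 23.2, 16.9 and 21.2 TPM in IF mice, again with no overlap, and rose by 0.88 ± 0.18 on the log2 scale (SE, adjusted p = 0.00135). Groups that do not overlap were seen in 4 of the 8 members, Il11ra1 being the other, and in 12.8% of all tested genes.

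Lifr, which binds LIF, was at 10.2, 21.7, 9.65, 10.6 and 14.8 TPM in control and at 19.6, 18.6, 25.9, 17.0 and 16.5 TPM in IF mice. Control replicate 2 lay among the IF mice, and the other 4 control mice below all of them. Lifr rose by 0.59 ± 0.17 on the log2 scale (SE, adjusted p = 0.0165). With these 2 groups alone in the fit, the adjusted p was 0.102. Il11ra1, the receptor for IL-11, went the other way, from 78.1, 61.4, 76.2, 76.6 and 81.7 TPM in control to 53.8, 56.2, 58.5, 59.8 and 47.0 TPM in IF mice, a log2 fold change of -0.44 ± 0.11 (SE, adjusted p = 0.00831). All IF mice lay below all control mice. Il11ra1 has a near-identical copy, Il11ra2, on the same chromosome, with which reads may be shared, and the listed level of Il11ra2 also fell (log2 fold change -0.48, adjusted p = 0.0323). For Il6st, the shared subunit gp130, control mice ranged from 146 to 325 TPM and IF mice from 271 to 332 TPM, and the groups overlapped (log2 fold change 0.35, adjusted p = 0.107).

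Of the ligands, Il11 showed the widest difference. It was at 1.37, 0.232, 0.25, 0.264 and 6.84 TPM in control and at 4.61, 22.4, 2.86, 6.89 and 26.0 TPM in IF mice. Control replicate 5 lay within the IF range, and the other 4 control mice lay below it. Because Il11 and Il6 were listed at 0 in some libraries, they were compared by a two-sided exact permutation test of the mean log2(TPM + 0.1) over all arrangements of 5 against 5 mice, whose smallest possible p is 0.00794, in 12 tests without adjustment. For Il11 in IF against control mice the difference was 3.40 on the log2 scale (exact p = 0.0238), and p stayed under the threshold of 0.05 without any single mouse. Il6 stayed under 1 TPM in every library. Its values were 0.526, 0.164, 0, 0.877 and 0.197 TPM in control and 0.692, 0.849, 0.279, 0.156 and 0.524 TPM in IF mice, which overlapped (exact p = 0.373).

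Lif itself split the control group. It was at 22.2, 13.8 and 19.3 TPM in control replicates 1, 3 and 4 and at 0.976 and 3.08 TPM in replicates 2 and 5. The IF mice were at 6.94, 5.75, 2.30, 4.91 and 4.72 TPM, below the high set, with the lowest in IF replicate 3. With all mice, the log2 fold change was -0.62 (95% interval -2.003 to 0.76, adjusted p = 0.555). Without both control replicates 2 and 5, the 2 controls that also correlated least with their group, it was -1.94 (adjusted p = 0.00398). These 2 mice were the lowest controls for Lif and were left out after the data were seen, so this p-value follows from that choice. Without replicate 2 alone the log2 fold change was -1.31 (adjusted p = 0.0726). The comparison of Lif between control and RU486-treated mice therefore turned on these libraries.

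Socs3, the feedback inhibitor, was at 55.9, 15.7, 42.0, 49.6 and 63.5 TPM in control and at 62.7, 83.1, 45.6, 54.9 and 144 TPM in IF mice. The groups overlapped, with 1 low control mouse and 1 high IF mouse. The log2 fold change of 0.80 had a 95% interval of 0.03 to 1.57 and an adjusted p of 0.134.

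**Figure D2:**
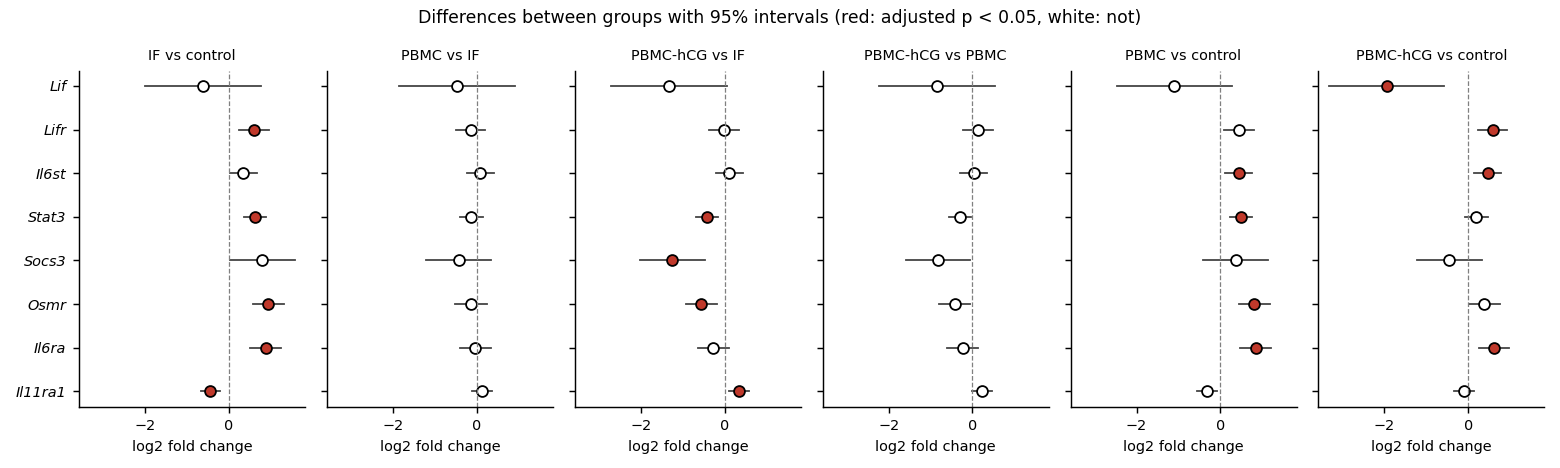
Log2 fold change (horizontal axes) of the 8 members above 0 TPM in all libraries in the 6 comparisons, with 95% intervals before adjustment over genes. Red points had an adjusted p under 0.05 in limma's test, as for 5 members between IF and control mice and for 0 between PBMC and IF mice.

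The comparison of the PBMC with the IF group asks what the mononuclear cells and their injection together changed in RU486-treated uteri. The 8 tested members were not found to differ between these groups. In limma's test 0 of 8 had an adjusted p under 0.05, and 0 had an unadjusted p under 0.05. Of all 18706 genes 0% passed, and 1271, or 6.79%, had an unadjusted p under 0.05. The intervals were narrowest for Il11ra1 (log2 fold change 0.12, 95% interval -0.11 to 0.36) and Stat3 (-0.12, 95% interval -0.39 to 0.14), and widest for Lif (-0.48, 95% interval -1.86 to 0.91). Stat3 was at 170, 185, 196, 176 and 234 TPM in PBMC mice, within the range of the IF group. Osmr was at 31.1, 33.1, 35.0, 32.1 and 39.1 TPM and also stayed within that range. Lifr lay close together in this group, at 17.2 to 17.8 TPM. Il11 was at 0.846, 1.97, 5.40, 1.32 and 17.1 TPM, overlapping the IF mice (exact p = 0.151), and Il6 at 0.166, 0, 0.557, 0 and 0.415 TPM (exact p = 0.143).

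In the PBMC-hCG group, Socs3, Stat3 and Osmr were lower than in the IF group and Il11ra1 was higher. These 4 of 8 members, 3 lower and 1 higher, had an adjusted p under 0.05, where 13.6% of all tested genes did (5.99% lower and 7.61% higher), and each adjusted p lay between 0.0386 and 0.0483. The median log2 fold change of the 8 was -0.35, against 0.05 for all genes. The calls were lost together with those of nearly all other genes. When each of the 10 mice was left out in turn, 0 members passed in 7 of the fits, namely without IF replicates 2, 4 or 5 or PBMC-hCG replicates 2, 3, 4 or 5, and in those fits 0 to 34 genes of all 18706 passed in place of 2544. Without IF replicate 1, 2 members passed. The fold changes of these 4 genes kept their sign in all 10 fits. Some sums of cell type markers moved in this comparison too. The myometrial sum had a median of 4430 TPM in IF and 3675 TPM in PBMC-hCG mice, with ranges that overlapped. The endothelial sum was at 473 to 510 TPM in IF and 523 to 590 TPM in PBMC-hCG mice, the epithelial sum had a median of 803 and 1076 TPM, and the red cell sum had a median of 1084 and 405 TPM. Of 51 marker genes tested, 7 passed, which is near the 13.6% of all genes. They were Krt8, Hoxa10, Pdgfra and Emcn as higher and Col6a4, Hba-a2 and Hbb-bs as lower, so stromal markers passed in both directions. The part of these markers in the result was not tested.

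Socs3 was at 39.4, 28.1, 26.0, 28.5 and 29.4 TPM in PBMC-hCG mice. All 5 lay below all IF mice, of which the lowest was at 45.6 TPM. The log2 fold change was -1.25 ± 0.37 (SE, adjusted p = 0.0386), and with each mouse left out the adjusted p ranged from 0.0169 to 0.128. Stat3 was at 168, 150, 150, 145 and 164 TPM, and 3 of these 5 values lay below the lowest IF mouse, which was at 159 TPM. It fell by 0.43 ± 0.13 on the log2 scale (SE, adjusted p = 0.0391), and the adjusted p ranged from 0.0107 to 0.128 when mice were left out. Osmr was at 25.8, 23.2, 23.7, 26.3 and 27.6 TPM, below all IF mice, with a log2 fold change of -0.56 ± 0.18 (SE, adjusted p = 0.0462). Il11ra1 was at 60.7, 74.4, 76.3, 66.5 and 71.5 TPM, above all IF mice, and rose by 0.34 ± 0.11 on the log2 scale (SE, adjusted p = 0.0483). The groups did not overlap in 3 of 8 members, and in 7.24% of all tested genes.

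The ligands were low in the PBMC-hCG group. Il11 was at 3.53, 0.296, 0.373 and 0.182 TPM in replicates 1 to 4 and listed at 0 in replicate 5. Replicate 1 lay within the IF range and the other 4 below it. The difference from the IF group was -4.30 on the log2 scale (exact p = 0.0159). Il6 was at 0.283 and 0.264 TPM in replicates 1 and 2 and listed at 0 in the other 3, a difference of -1.67 (exact p = 0.0397). At levels this far under 1 TPM, with a pseudocount of 0.1, the size of the Il6 difference depends on the pseudocount, and limma on all genes without the filter gave an adjusted p of 0.136. Without any one of IF replicates 1, 2 and 5 or PBMC-hCG replicates 3, 4 and 5, the exact p of Il6 lay between 0.0635 and 0.0714. Lif was at 3.31, 0.622, 1.66, 1.86 and 2.72 TPM. It overlapped the IF group, and the log2 fold change of -1.33 had a 95% interval of -2.71 to 0.05 and an adjusted p of 0.158. For Il6ra, Lifr and Il6st the adjusted p was 0.283, 0.966 and 0.619.

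The effect of culturing the cells with hCG is tested by the PBMC-hCG group against the PBMC group. None of the 8 tested members passed, where 0.0107% of all genes passed, or 2 of 18706. Of the 8, 3 had an unadjusted limma p under 0.05, namely Stat3, Osmr and Socs3, as did 16.2% of all genes. Stat3 had a log2 fold change of -0.30 (95% interval -0.57 to -0.04, adjusted p = 0.289), with all 5 PBMC-hCG mice below all PBMC mice. Osmr was at -0.42 (95% interval -0.80 to -0.05, adjusted p = 0.289), also without overlap, and Socs3 at -0.82 (95% interval -1.60 to -0.05, adjusted p = 0.295), with PBMC replicate 1 at 28.0 TPM among the PBMC-hCG mice. Such a lack of overlap was seen in 3.46% of all genes and in 2 of the 8 members. For Il11 the exact p was 0.0476, but it rose to 0.0794 with a pseudocount of 1 and to between 0.0714 and 0.0952 without any one of PBMC replicates 2, 3 and 5 or PBMC-hCG replicates 2 to 5. A difference between the PBMC-hCG and PBMC groups was thus not shown for any member after adjustment.

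Against control mice, PBMC mice had higher Stat3, Osmr and Il6ra, and PBMC-hCG mice had higher Il6ra, Lifr and Il6st and lower Lif. In the PBMC group 4 of 8 members passed, all higher, where 19.5% of all genes passed and 12.8% were higher. Il6ra rose by 0.85 ± 0.18 (SE, adjusted p = 0.0021), Osmr by 0.81 ± 0.18 (SE, adjusted p = 0.00331) and Stat3 by 0.50 ± 0.13 (SE, adjusted p = 0.00878) on the log2 scale. For these 3 genes all PBMC mice lay above all control mice, and 12.7% of all genes had no overlap between these groups. Il6st, with a log2 fold change of 0.44 (adjusted p = 0.0488), was at 0.14 (adjusted p = 0.308) without control replicates 2 and 5. That fit also added 3 calls in the PBMC group, for Lif (log2 fold change -2.41, adjusted p = 0.000935, against -1.10 and 0.272 with all mice), Lifr (0.78, adjusted p = 0.000107, against 0.45 and 0.0711) and Il11ra1 (-0.37, adjusted p = 0.0429, against -0.32 and 0.0523). The mice left out were the 2 lowest controls for Lif and Il6st and the 2 highest for Lifr. The p-values of these 3 genes in that fit follow in part from that choice.

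In the PBMC-hCG group 4 of 8 members passed, 3 higher and 1 lower, where 31.8% of all genes passed (20.2% higher and 11.6% lower). Il6ra, at 21.6, 14.9, 13.2, 15.5 and 12.7 TPM, rose by 0.62 ± 0.18 (SE, adjusted p = 0.0124), and Lifr, at 19.4, 19.3, 19.3, 20.7 and 16.9 TPM, by 0.58 ± 0.17 (SE, adjusted p = 0.0138) on the log2 scale. Il6st, at 297 to 357 TPM, had a log2 fold change of 0.46 (adjusted p = 0.0252). Without control replicates 2 and 5, its 2 lowest controls, it was 0.16 (adjusted p = 0.169). Lif fell by 1.95 ± 0.66 (SE, adjusted p = 0.0304), or to 0.259 of the control level, as the ratio of geometric means. The 5 PBMC-hCG values overlapped the 2 low control values and lay below the 3 high ones. Without both low controls the log2 fold change of Lif was -3.27 (adjusted p = 4.89e-05), a p-value that follows from leaving out the low values. Over single mice left out the adjusted p ranged from 0.000756 to 0.0913. With only the 2 groups in the fit, the adjusted p was 0.0966 for Lif, 0.0514 for Lifr and 0.0871 for Il6st, so 1 of the 4 calls was left. Lif thus lay highest in control, then IF, PBMC and PBMC-hCG by mean, and no neighbouring pair in that order differed in limma's test. For Stat3 and Osmr the order by mean was IF, PBMC, PBMC-hCG and control, again with no neighbours that passed.

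The rest of the pathway was followed in lists of 66 other genes, of which 59 were above 0 TPM in all libraries. Between IF and control mice 20 of the 59 passed, 14 higher and 6 lower, where 21.9% of all genes did. Between PBMC and IF mice 0 of 59 passed in limma's test and 5 had an unadjusted p under 0.05, as did 6.79% of all genes. Between PBMC-hCG and IF mice 14 of 59 passed, 1 higher and 13 lower, where 13.6% of all genes did, and 0 to 24 passed when single mice were left out, with 0 in the same 7 fits that lost the members. No gene of the 59 passed between the PBMC-hCG and PBMC groups. Of the 59, 14 had an unadjusted p under 0.05 there, as did 16.2% of all genes.

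Among other gp130 ligands, of which 4 of 9 could be tested, Clcf1, which encodes a ligand of the CNTF receptor, averaged 22.6 TPM in control and 46.5 TPM in IF mice, a log2 fold change of 1.13 ± 0.20 (SE, adjusted p = 0.000528). It was also higher than in control mice by 0.93 (adjusted p = 0.00286) in the PBMC group and by 0.76 (adjusted p = 0.00796) in the PBMC-hCG group. Ctf1, which encodes cardiotrophin 1, averaged 6.24 TPM in control and 3.62 TPM in IF mice (log2 fold change -0.71, adjusted p = 0.0135). Osm, the ligand for Osmr, averaged 0.561 TPM in control and 0.613 TPM in IF mice and did not pass (adjusted p = 0.932). Of the 4 other receptor genes, Il27ra, the IL-27 receptor subunit, rose from IF to PBMC-hCG mice by 0.56 on the log2 scale (adjusted p = 0.0313), and Il31ra was lower in PBMC-hCG than in control mice (log2 fold change -1.18, adjusted p = 0.0188). Control replicate 2 held 10.03 TPM of Il31ra against 2.06 to 2.78 TPM in the other control mice, and without it the log2 fold change was -0.79. The call was lost without PBMC-hCG replicate 2 (adjusted p = 0.0556) and with only the 2 groups in the fit (adjusted p = 0.0643).

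The kinases that gp130 uses gave 1 call in 18 tests with all mice and further calls without control replicates 2 and 5. Jak1, which carries most of the gp130 signal, had log2 fold changes between -0.24 and 0.04 in the 6 comparisons and passed in none, but without those control mice it was lower in PBMC-hCG than in control mice (-0.32, adjusted p = 0.00675). Jak2 had a log2 fold change of -0.31 in IF (adjusted p = 0.107) and -0.35 in PBMC mice (adjusted p = 0.0752) against control. Without control replicates 2 and 5 both passed, at -0.51 (adjusted p = 0.00443) and -0.55 (adjusted p = 0.0032). These mice were the 2 lowest controls for Jak2, and replicate 2 was the lowest for Jak1. The p-values of both genes in that fit thus follow in part from that choice. With median ratio scaling and all mice, both Jak2 comparisons passed as well (adjusted p = 0.0433 and 0.0222). Tyk2 passed only between PBMC-hCG and control mice (log2 fold change 0.41, adjusted p = 0.00216). Of the other STAT genes, Stat5a, a STAT activated by other cytokines and hormones, was at 15.9 to 18.8 TPM in control and 26.7 to 34.9 TPM in IF mice, a rise of 0.84 ± 0.11 (SE, adjusted p = 2.6e-05) on the log2 scale with no overlap. It fell by 0.56 ± 0.11 (SE, adjusted p = 0.0258) from IF to PBMC-hCG mice. Stat2, which acts downstream of interferons, rose against control by 0.58 in IF (adjusted p = 0.0152), 0.54 in PBMC (adjusted p = 0.0237) and 1.05 in PBMC-hCG mice (adjusted p = 0.000109). Without control replicates 2 and 5 the adjusted p of Stat2 was 0.0598 in the IF and 0.0884 in the PBMC group.

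Of 12 other inhibitors, 2 rose between control and IF mice, where 21.9% of all genes passed, and 2 fell between IF and PBMC-hCG mice, where 13.6% did, so the counts are near those of all genes. Both comparisons share the IF mice, and the genes were Socs1 and Ptpn1 in each. Socs1, a second SOCS protein that blocks the kinases, averaged 10.98 TPM in control, 28.0 TPM in IF and 13.7 TPM in PBMC-hCG mice. Its log2 fold change was 1.21 ± 0.30 (SE, adjusted p = 0.00776) for IF against control and -0.94 ± 0.30 (SE, adjusted p = 0.048) for PBMC-hCG against IF. Ptpn1, a phosphatase that acts on the kinases, had log2 fold changes of 0.46 (adjusted p = 0.00425) and -0.49 (adjusted p = 0.0258) in the same comparisons. Between PBMC and control mice, Socs5 rose by 0.29 (adjusted p = 0.0146) and Socs7 fell by 0.29 (adjusted p = 0.0088) on the log2 scale. The call for Socs5 was lost without control replicates 2 and 5, its 2 lowest controls (adjusted p = 0.0679). It was also lost with only the 2 groups in the fit (adjusted p = 0.0662).

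STAT3 target genes, a list of 23 written from general knowledge and also used by other factors, gave calls in both directions in IF mice and as lower from IF to PBMC-hCG mice. Between IF and control mice 11 of 23 passed, 7 higher and 4 lower, where 21.9% of all genes passed, with a median log2 fold change of 0.44 against 0.02 for all genes. Between PBMC-hCG and IF mice 8 of 23 passed, all lower, where 13.6% of all genes passed and 5.99% were lower, with a median of -0.40 against 0.05. Between PBMC and IF mice 0 of 23 passed and 3 had an unadjusted p under 0.05 (median -0.19), as did 6.79% of all genes. PBMC against control gave 8 of 23, 5 of them higher, where 19.5% of all genes passed. PBMC-hCG against control gave 8 of 23 as well, 3 of them higher, which is near the 31.8% of all genes.

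Cebpb, a transcription factor of inflammation and decidualization, changed most in both comparisons with the IF group. It was at 26.5, 29.5, 19.2, 25.3 and 54.0 TPM in control and at 82.3, 126, 78.2, 102 and 176 TPM in IF mice, a rise of 1.89 ± 0.33 (SE, adjusted p = 0.00038) on the log2 scale with no overlap. In PBMC-hCG mice it was at 66.2, 32.2, 24.4, 36.2 and 35.9 TPM, below all IF mice (log2 fold change -1.55 ± 0.33 (SE), adjusted p = 0.0258). PBMC mice lay between 34.7 and 121 TPM and overlapped the IF group. Il4ra, the IL-4 receptor chain, was at 44.9 to 57.2 TPM in control and 111 to 234 TPM in IF mice, a log2 fold change of 1.57 ± 0.21 (SE, adjusted p = 3.15e-05), and at 52.7 to 118 TPM in PBMC-hCG mice, a log2 fold change of -0.98 against IF (adjusted p = 0.0258). Lcn2, which encodes the iron-binding lipocalin 2, fell by 1.30 ± 0.40 on the log2 scale from IF to PBMC-hCG mice (SE, adjusted p = 0.0417). Myc and Ccnd1, which drive cell division, were lower than in control mice in all RU486-treated groups. Myc had log2 fold changes of -1.04 in IF (adjusted p = 5.14e-07), -1.22 in PBMC (adjusted p = 7.28e-08) and -1.30 in PBMC-hCG mice (adjusted p = 3.67e-08). Ccnd1 had log2 fold changes of -0.97 (adjusted p = 0.0221), -0.87 (adjusted p = 0.0429) and -1.63 (adjusted p = 0.000418) in the same order. Fgg, a fibrinogen chain gene, was higher in PBMC-hCG than in control mice (log2 fold change 1.57, adjusted p = 0.0282), and with only the 2 groups in the fit the adjusted p was 0.0556.

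**Figure D3:**
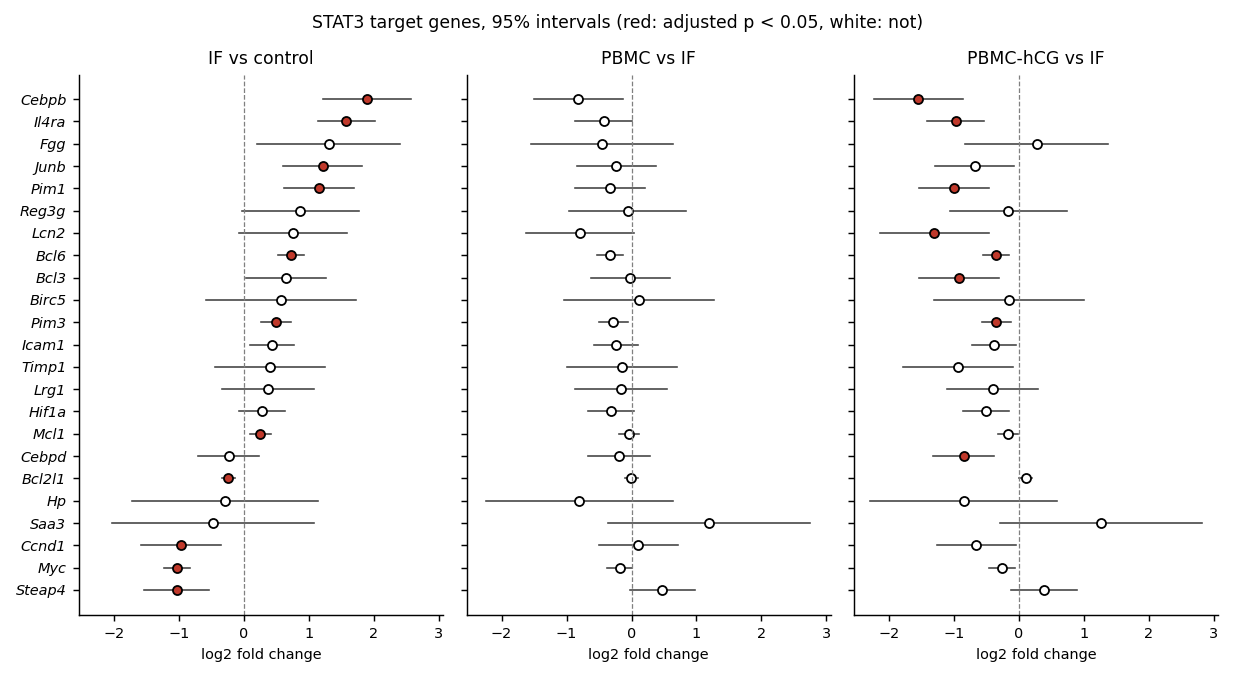
Log2 fold change (horizontal axes, 95% intervals) of 23 STAT3 target genes, ordered by their value between IF and control mice, in 3 comparisons that share the IF mice. Red points had an adjusted p under 0.05, which were 11 genes in IF against control, 0 in PBMC against IF and 8, all lower, in PBMC-hCG against IF.

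Genes linked to the uterine response to LIF gave 1 call in IF against control mice, where 21.9% of all genes passed. They gave 2 calls in PBMC-hCG against IF mice, where 13.6% passed, and 1 in PBMC-hCG against control mice, where 31.8% passed. The other comparisons gave no call for these genes. Of the 7 that could be tested, Hbegf, an epidermal growth factor family ligand, rose by 0.94 ± 0.28 (SE, adjusted p = 0.0197) in IF mice and fell by 1.28 ± 0.28 (SE, adjusted p = 0.0258) on the log2 scale from IF to PBMC-hCG mice. Ptgs2, which encodes cyclooxygenase 2, averaged 3.22 TPM in IF and 0.822 TPM in PBMC-hCG mice (log2 fold change -1.87, adjusted p = 0.0385), and with a pseudocount of 1 the adjusted p was 0.0533. Coch, linked to LIF in the uterus, was 0.94 higher in PBMC-hCG than in control mice on the log2 scale (adjusted p = 0.0471). Without control replicates 2 and 5, its 2 lowest controls, it was 0.39 higher (adjusted p = 0.26).

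Within groups, mice with more Stat3 had more Socs3. Log2 levels were centred on their group means and compared over the 20 mice, with 100000 permutations within groups and adjustment over 4 relations. Stat3 and Socs3 had Pearson's r = 0.902 (permutation p = 1e-05, the smallest these permutations can give, adjusted p = 4e-05) and Spearman's rho = 0.881 (permutation p = 8e-05, adjusted p = 0.00016), and r was 0.909 without the 2 mice farthest from the median of Stat3. Osmr and Socs3 had r = 0.884 (permutation p = 2e-05, adjusted p = 4e-05) and rho = 0.868 (permutation p = 5e-05, adjusted p = 0.00016), with r = 0.775 without the 2 farthest mice. High correlations with Stat3 were common, since the median absolute r of 15770 other genes with it was 0.499, and 0.304% of them had a higher r than Socs3.

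Lif was less closely related to either. Lif and Socs3 had r = 0.530 (permutation p = 0.0384, adjusted p = 0.0384) and rho = 0.465 (permutation p = 0.0388, adjusted p = 0.0388). Without control replicate 2 and PBMC-hCG replicate 2, the mice farthest from the median of Lif, r fell to 0.270, so the relation rests on those mice. Lif and Stat3 had r = 0.548 (permutation p = 0.00812, adjusted p = 0.0108) and rho = 0.528 (permutation p = 0.0178, adjusted p = 0.0238), with r = 0.373 without the same mice. Of the other genes, 15.7% had a higher within-group r with Lif than Socs3 had.

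**Figure D4:**
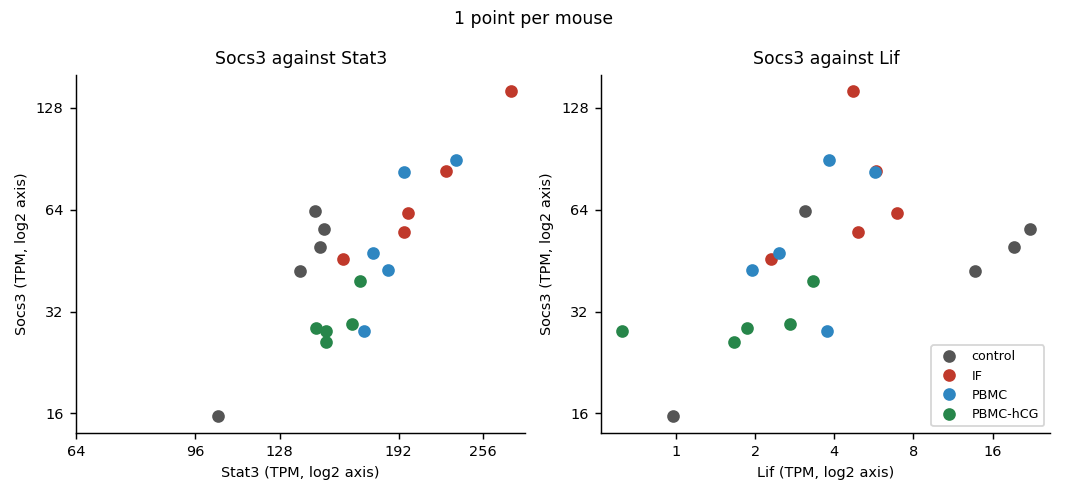
Socs3 against Stat3 (left) and against Lif (right) in TPM on log2 axes, with 1 point per mouse coloured by group. Socs3 climbs with Stat3 across the mice, from control replicate 2 (104 and 15.7 TPM) to IF replicate 5 (281 and 144 TPM), while the 3 control mice at 13.8 to 22.2 TPM of Lif have Socs3 between 42.0 and 55.9 TPM.

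Over all 20 mice and 15771 genes with a mean of at least 1 TPM, the genes whose log2 levels were most like those of Stat3 were Sh3pxd2b (Pearson's r = 0.967), Prkar1a (r = 0.965) and Tnfrsf1a (r = 0.963). Those most like Socs3 were Azin1 (r = 0.950), Nfil3 (r = 0.949) and Etf1 (r = 0.948). For Lif they were Stx18 (r = 0.883), LOC115487110 (r = 0.873) and Nde1 (r = 0.868). These values describe the same 20 libraries, whose groups and cell makeup they share.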

How the data were processed

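Uterine polyA RNA of 20 mice, 5 in each of 4 groups named in the labels, was analysed. The authors prepared stranded mRNA libraries, trimmed reads with Trimmomatic, aligned them to mm10 with HISAT2 and assembled transcripts with StringTie, as stated in the methods and the submitters' processing notes. The values they deposited are TPM per gene. TPM holds no depth, so no counting error could be given, and the edgeR test that the authors ran on counts was not used here.

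Genes above 0 TPM in all 20 libraries (18706) were compared as log2(TPM + 0.1). The test was that of limma (version 3.58.1, R version 4.3.3) with trended variance, all 4 groups in 1 fit and Benjamini-Hochberg adjustment within each comparison. Fold changes on this scale understate those of low genes. A call is an adjusted p under 0.05. On data simulated for a comparison of 5 with 5 mice, with 200 of 18706 genes changed, 194 were recovered with 6 false calls. How recovery depends on the size of a change was not tested, so these counts give no sensitivity for the members. Genes at 0 TPM and relations across mice were tested by permutation, in Python 3.11.15. Fitted values for the 4 groups share 1 estimate of the spread.

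The members and gene lists were chosen with earlier results of these data known. Named outside the members were, per list and comparison, up to 2 called genes of largest change with a mean of at least 1 TPM, and Jak1, Jak2 and Tyk2. A gene that this rule names is not reported here. Osm was named after its values were seen. Alternatives were other pseudocounts, filters, scalings and fits, a replicate block, and each mouse left out. Promoter sequences are RefSeq's for GRCm38.p6, and positions were matched for all 10 members. Mice given medium alone were not analysed here. The labels name no batch.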

Additional observations from a re-analysis of the deposited data

Results flagged for a closer look

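Dixon's test at the 95% level was run on TPM and not on the log2 scale, on which a high value stands out less. Among the 40 sets of 5 values, 1 for each member and group, 7 held a mouse that stood apart from the other 4. Chance gives this in about 1 in 20 sets if values are normally distributed, which was not tested. On the TPM scale Il11 stood out in 3 groups, always as a single high mouse. Control replicate 5 was at 6.84 TPM against 0.232 to 1.37 TPM in the other control mice, PBMC replicate 5 at 17.1 TPM against 0.846 to 5.40 TPM, and PBMC-hCG replicate 1 at 3.53 TPM against 0 to 0.373 TPM. The same PBMC-hCG mouse had the highest Socs3 of its group, at 39.4 TPM against 26.0 to 29.4 TPM. Control replicate 2, the library that stood apart over all genes, had the lowest Stat3 of the control group, at 104 TPM against 137 to 149 TPM, and the lowest Il11ra1, at 61.4 TPM against 76.2 to 81.7 TPM. For Il6st, PBMC replicate 5 was at 283 TPM against 329 to 343 TPM in the other PBMC mice.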

How the results depend on the processing

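The counts of members called were within 1.5 times of those reported under most alternatives. The exceptions concern 2 comparisons. For PBMC-hCG against IF, 4 members became 2 without the variance trend and 1 without the filter on low values (1 also with a pseudocount of 1). None of the 4 kept its call without the filter. Their adjusted p in limma's test was then 0.0643 for Socs3, 0.0645 for Stat3, 0.0749 for Osmr and 0.0782 for Il11ra1. The 1 counted was thus a member other than these 4. For PBMC-hCG against control, 4 became 1 with only the 2 groups in the fit. Of the other pathway genes, 14 became 7 without the filter and 8 with a pseudocount of 1 as well, an alternative chosen after seeing the data, for PBMC-hCG against IF, and 13 became 8 for PBMC against control with only the 2 groups. The cause was not tested.

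With each mouse left out in turn, members called ranged from 4 to 6 for IF against control, 0 to 4 for PBMC-hCG against IF, 3 to 6 for PBMC against control and 2 to 4 for PBMC-hCG against control, and other pathway genes from 16 to 26, 0 to 24, 9 to 17 and 12 to 22. The fewest for PBMC-hCG against control, 2 members, came without PBMC-hCG replicate 3. The most other pathway genes for PBMC-hCG against IF, 24, came without IF replicate 3. Both counts stayed at 0 for PBMC against IF and for PBMC-hCG against PBMC. Of the 12 exact tests, 4 passed with all mice and 2 to 5 with a mouse left out. All 4 relations passed with either pseudocount.

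Signs changed only for values near 0 that had not passed. These ranged over left-out mice from -0.0693 to 0.0935 for Lifr (PBMC-hCG against IF), -0.0216 to 0.0658 for Il6st (PBMC-hCG against PBMC), and, for PBMC against IF, -0.233 to 0.00517 for Osmr, -0.158 to 0.045 for Il6ra, -0.13 to 0.0332 for Jak2 and -0.0233 to 0.119 for Tyk2. For Jak1 they were -0.085 to 0.0878 (IF against control, -0.0839 without control replicates 2 and 5) and -0.136 to 0.0364 (PBMC against control).

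The labels number the mice of each group 1 to 5. The 30 same-numbered pairs had correlations of their deviations from -0.247 to 0.457, with 8 over 0.1, against 31 of the 120 differently numbered pairs. Of 20 libraries, 2 correlated best with their own number. A pairing by number was thus not seen, which does not show that there was none. With the replicate number as a block, 5, 0, 4, 0, 3 and 4 members and 22, 0, 19, 0, 14 and 17 other pathway genes were called in IF against control, PBMC against IF, PBMC-hCG against IF, PBMC-hCG against PBMC, PBMC against control and PBMC-hCG against control. Under this block Il6st lost its call between PBMC and control mice (adjusted p = 0.055), and Jak2 in the same comparison (adjusted p = 0.0416) and Tyk2 between PBMC-hCG and IF mice (adjusted p = 0.0477) gained one.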

Other observations

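Areg, the amphiregulin gene, is linked to the hormonal state of the luminal epithelium and was on the list of LIF-linked genes, but was listed at 0 in 4 libraries and so had no fitted test. It is named here after its values were seen. It was at 15.8, 0, 10.2, 17.2 and 4.76 TPM in control replicates 1 to 5, at 5.90, 15.0, 0, 11.2 and 34.2 TPM in IF, at 2.87, 3.57, 6.33, 1.01 and 25.8 TPM in PBMC, and at 1.75, 0.163, 0, 0 and 0.160 TPM in PBMC-hCG mice. The PBMC-hCG values lay below those of 4 of 5 mice in the control and IF groups.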
